A study of Homo sapiens with 8 samples.

Results

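PURPL is a long noncoding RNA that the tumour suppressor p53 switches on, and BJ cells are a line of human skin fibroblasts. Of the 8 RNA sequencing libraries in the series, 4 belong to the knockdown of PURPL described here. In 2 of them (ASO-PURPL) the cells carried an antisense oligonucleotide, or ASO, against PURPL, and in the other 2 (ASO-NC) a control oligonucleotide. The remaining 4 libraries, with PURPL overexpressed (OE-PURPL) or with the control labelled PCDNA, served as a readout with controls of their own. They also entered the same limma fit and so share its estimate of the spread. The series concerns long noncoding RNAs in the aging of human fibroblasts, and the knockdown asks which genes follow a lowering of PURPL. Each ASO-PURPL library was set against the ASO-NC library of its own deposited table. The replicate numbered 1 gave pair 1 and the replicate numbered 2 gave pair 2.

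The genes described were chosen as protein-coding, with a mean of at least 5 FPKM (fragments scaled by transcript length and library size) over the 4 ASO libraries, and with equal direction in both pairs. Of 14977 genes tested, 8678 were protein-coding with that mean, and 4581 of these had equal directions. The choice uses the direction, so the direction of a gene named by it is a description. The same holds for statements below that the groups of a gene overlap or do not. Such statements set libraries across separately normalized tables, and the share of all genes without overlap was not counted. At the edge of the level limit, GNG2 averaged 5.00 and ARL15 5.01 FPKM and were kept, while RAD52 with 4.99 FPKM was not. All groups are of 1 cell line, and its labels do not say whether replicates came from separate cultures. The spread behind the p-values is thus that between libraries and may be a technical one. The sources used here do not give the sequence of the oligonucleotide, so the site it targets in PURPL was not analysed.

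An antisense oligonucleotide used for knockdown commonly pairs with its target and directs RNase H to cut the RNA strand. PURPL has been described as holding down the basal level of p53, through binding the nucleolar protein MYBBP1A, and as a marker of senescent cells. Senescent fibroblasts stop dividing through the CDK inhibitors p21 (CDKN1A) and p16 (CDKN2A), and they secrete cytokines, chemokines and proteases.

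The libraries carried the markers of fibroblasts. The 10 fibroblast markers together held 3673 to 5128 FPKM in ASO-PURPL libraries and 3795 to 5698 FPKM in ASO-NC libraries. KRT5 and KRT1, which define keratinocytes, were listed at 0 or at the table's floor of 0.01 FPKM in all 4 libraries, and the leukocyte marker PTPRC reached at most 0.303 FPKM. The 4 endothelial markers summed to at most 0.421 FPKM in ASO-PURPL and 1.66 FPKM in ASO-NC libraries. The 4 melanocyte markers summed to at most 3.56 FPKM in ASO-PURPL and 1.55 FPKM in ASO-NC libraries. KRT10, KRT8, KRT18 and the lysosomal marker CD68, which are not limited to epithelia or leukocytes, were present. Between 14002 and 14598 genes reached 1 FPKM in ASO-PURPL libraries and between 13848 and 14457 in ASO-NC libraries. Numbers of reads are unknown, so no counting error is attached to a level. In bulk RNA, fewer cells of a type and less RNA per cell cannot be told apart.

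PURPL itself was lower in both knockdown libraries than in their controls. It had 6.31 and 4.24 FPKM in ASO-PURPL cells, against 16.2 and 9.74 FPKM in ASO-NC cells. Both treated values lay below both control values, with the caveat that replicates 1 and 2 were normalized in separate tables. The level was 61.0% lower in pair 1 and 56.4% lower in pair 2. On the scale of log2(FPKM + 1), used for all ratios here, the ratios were -1.23 and -1.03, and the mean of the pairs was -1.13 ± 0.16, with an adjusted p of 0.374 from limma. Errors of mean ratios here are moderated SEs of the joint limma fit, which pools the spread of the knockdown and overexpression pairs and of other genes, so they are not the spread of the 2 knockdown pairs alone. With the knockdown pairs alone the adjusted p was 0.733. The authors' deposited table gives a log2 fold change of -1.233 for pair 1. PURPL lies on chromosome 5 at chr5:27472292-27496401 on the plus strand (GRCh38, GENCODE 29).

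In the overexpression libraries PURPL had 153 and 238 FPKM in OE-PURPL cells, against 5.42 and 5.73 FPKM in PCDNA cells. The knockdown ratio minus the overexpression ratio was -6.00 ± 0.227 on the log2 scale (moderated SE, 2 pairs each), with an adjusted p of 0.0106 from limma. The treatments were made to lower and to raise PURPL, so the sign of this difference was set by the design. Most of it came from overexpression, with a mean ratio of 4.87. The contrast called 3 of 14977 genes (0.02%), PURPL among them. The other two are transcripts with clone-based names, named after their values were seen. CH17-13I23.3 was listed at 0.01 and 0 FPKM in ASO-PURPL and at 7.98 and 11.9 FPKM in ASO-NC libraries, while it had 24.0 and 12.5 FPKM in OE-PURPL and 0.01 and 0 FPKM in PCDNA libraries. RP11-193F5.1 was listed at 0 or at the floor in all ASO libraries, so its difference comes from the overexpression libraries. PURPL sits far from the protein-coding genes tested. The nearest on its right, DROSHA, lies 3904 kb away and had 14.8 and 11.2 FPKM in ASO-PURPL cells, against 13.6 and 12.4 FPKM in ASO-NC cells. The nearest on its left, BASP1, lies 10195 kb away and gave ratios of -0.13 and -0.20.

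**Figure D1:**
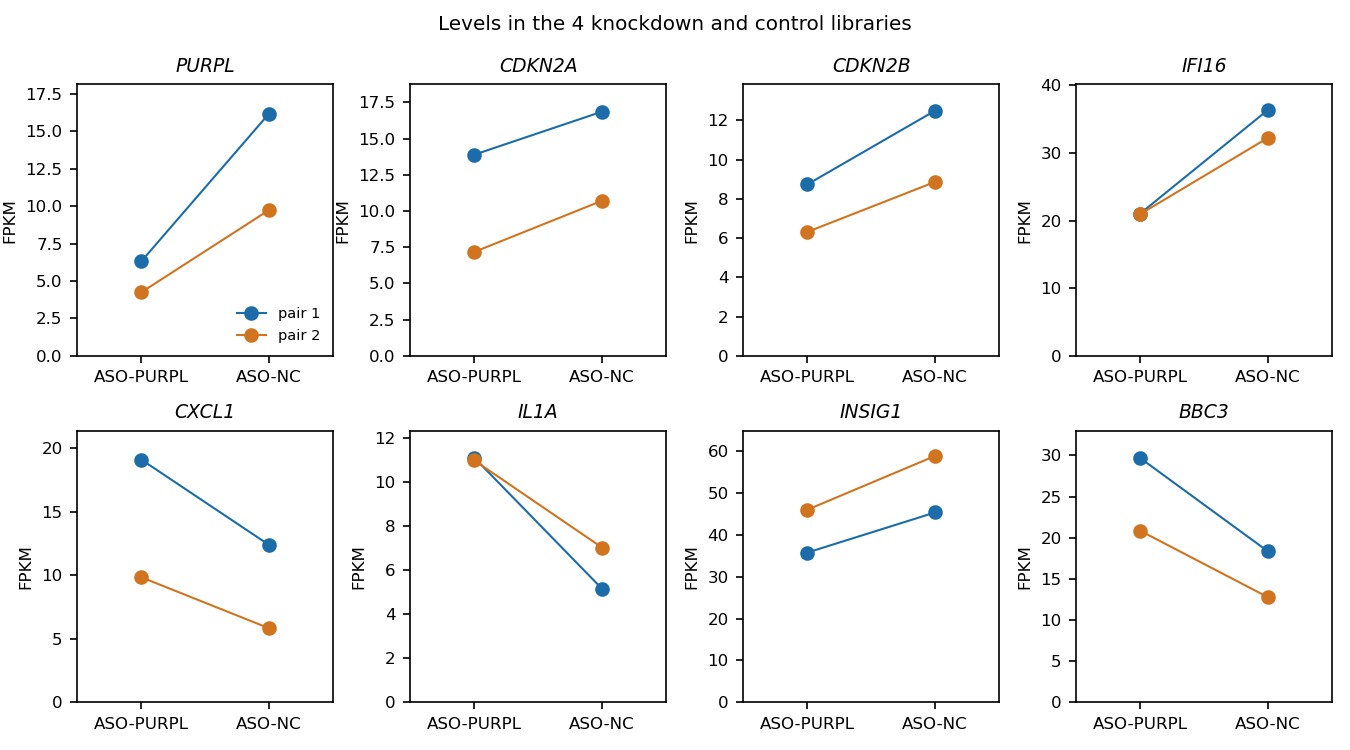
FPKM of 8 genes (vertical axes from 0) in the ASO-PURPL and ASO-NC libraries. Lines join the libraries of a pair, blue for pair 1 and orange for pair 2, and PURPL reads 6.31 and 4.24 FPKM on the left against 16.2 and 9.74 FPKM on the right.

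No gene passed the test across all genes. Limma called 0 of 14977 genes (0%) at the adjusted threshold of 0.05, while 1225 genes (8.18%) had p under 0.05 before adjustment. Over all genes tested, 2890 (19.3%) were higher in both pairs, 5000 (33.4%) were lower in both, and 7087 (47.3%) went in opposite directions. Among the 8678 protein-coding genes above the level limit, 1263 (14.6%) were higher in both pairs, and 3318 (38.2%) were lower in both. Higher genes made up 27.6% of the equal-direction genes. Centred on the median of all genes tested in each pair, 1825 were higher and 2518 lower, and the share was 42.0%. The medians of all genes tested were -0.02 in pair 1 and -0.06 in pair 2.

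The 2 pairs resembled each other little across genes. Over the protein-coding genes, the Pearson correlation of the pair ratios across genes was -0.00, and over all genes tested it was 0.07. Genes are not independent replicates, and no p is given. Ratios of middling size were somewhat more often equal than opposite in direction, and those of 1 or more were not. At 0.25 or more in both pairs, 446 genes agreed in direction (161 higher, 285 lower) and 315 did not. Of the latter, 166 were higher in pair 1 and 149 in pair 2. Ratios were not centred for these counts, and the protein-coding genes had medians of -0.03 in pair 1 and -0.08 in pair 2. At 0.5 or more, 42 agreed (29 higher, 13 lower) and 33 did not. At 1 or more, IMMP2L was lower in both pairs, whereas LCOR, USP41 and MT1H went in opposite directions (named after their values were seen). USP41 had 0.428 and 25.1 FPKM in ASO-PURPL and 23.0 and 0.266 FPKM in ASO-NC libraries, so it was near 0 in 1 library of each group.

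**Figure D2:**
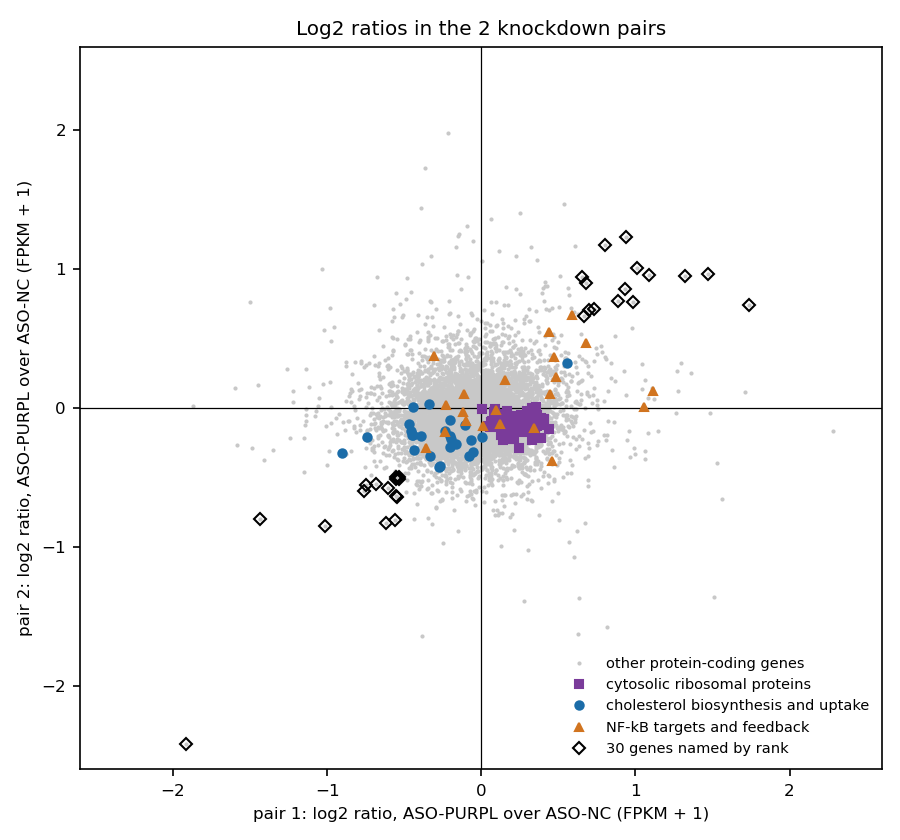
Log2 ratio of ASO-PURPL over ASO-NC in pair 1 (horizontal) and pair 2 (vertical) for 8678 protein-coding genes, with 3 gene lists and the 30 genes named by rank marked; 6 genes lie beyond the axes. The cloud has a correlation of -0.00, and the ribosomal protein genes lie to the right of and below the origin.

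Part of the spread went with transcript length, and with opposite sign in the 2 pairs. Across genes, the Spearman correlation of the ratio with transcript length was -0.17 in pair 1 and 0.20 in pair 2, as a description. In the shortest of 10 length classes of the protein-coding genes the median ratio was 0.08 in pair 1 and -0.14 in pair 2. In the longest class it was -0.12 in pair 1 and 0.05 in pair 2. Lists of genes for large protein complexes showed the same signs. The subunits of the cytosolic ribosome were higher in pair 1 and lower in pair 2 for 78 of 79 genes, against 26.2% of all genes tested, and the exception was RPLP2. Their median ratio was 0.22 in pair 1 and -0.11 in pair 2, and 0.17 and -0.08 once trends with length and GC content were removed. The nuclear genes of oxidative phosphorylation did the same for 50 of 73 members, with medians of 0.11 and -0.12.

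**Figure D3:**
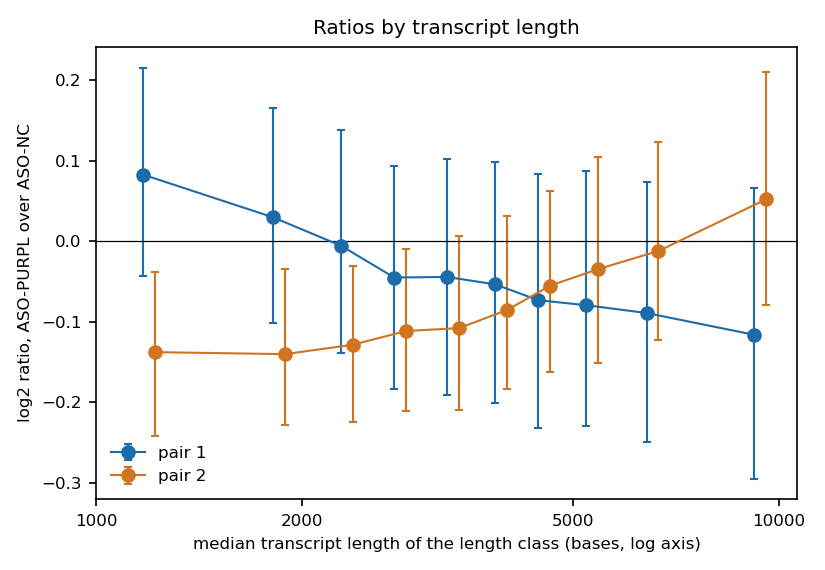
Median log2 ratio of ASO-PURPL over ASO-NC (points) and quartiles (bars) in 10 bins of transcript length on a log axis, for pair 1 in blue and pair 2 in orange, drawn slightly apart. Pair 1 runs from 0.08 in the shortest class to -0.12 in the longest, and pair 2 from -0.14 to 0.05.

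Of the 15 genes with the largest ratios higher in both pairs, 13 are described, and several of them regulate chromatin and transcription. STAG2, a subunit of cohesin, had 62.5 and 20.4 FPKM in ASO-PURPL cells, against 24.4 and 10.1 FPKM in ASO-NC cells, and its groups overlapped. MRTFB, a cofactor of serum response factor, had 8.80 and 8.94 FPKM in ASO-PURPL cells, against 4.61 and 3.40 FPKM in ASO-NC cells, and its groups did not overlap. TBL1X, a subunit of the NCoR corepressor, had ratios of 0.89 and 0.77, and MNAT1, which joins the CDK7 kinase into the factor TFIIH, had 1.74 and 0.74. The H2B histone gene H2BC11 had ratios of 0.98 and 0.76, with near-identical copies that make its level uncertain.

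Other genes of this set act at the cell surface or in the secretory pathway. SIL1, which recharges the chaperone BiP in the endoplasmic reticulum, had 142 and 150 FPKM in ASO-PURPL cells, against 89.5 and 77.6 FPKM in ASO-NC cells. Both treated values were above both controls, and the mean ratio was 0.80 ± 0.117 (moderated SE; limma adjusted p 0.377). SELPLG, the ligand of P-selectin, had 29.6 and 23.8 FPKM in ASO-PURPL cells, against 17.9 and 14.1 FPKM in ASO-NC cells. The adaptor LAT2, known from immune cells, had 22.8 and 16.6 FPKM in ASO-PURPL cells, against 11.4 and 6.47 FPKM in ASO-NC cells. ZDHHC11, a palmitoyltransferase with a close copy, had ratios of 1.09 and 0.96, and the scaffold protein MPP3 had 0.93 and 0.86. The actin-binding AVIL and SCUBE2, which helps to release Hedgehog proteins, are the others described.

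BBC3 encodes PUMA, which promotes apoptosis and is a direct target of p53 (chr19:47220822-47232766, minus strand). It had 29.7 and 20.9 FPKM in ASO-PURPL cells, against 18.3 and 12.8 FPKM in ASO-NC cells. The ratio was 0.67 in each pair, with a mean of 0.67 ± 0.106 (moderated SE) and a limma adjusted p of 0.425. Both treated levels exceeded both control levels. Over the 13 higher genes described, the limma adjusted p ran from 0.355 to 0.582.

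IMMP2L, a subunit of the mitochondrial inner membrane peptidase, gave the largest ratio lower in both pairs (chr7:110663051-111562517, minus strand). It had 3.91 and 1.74 FPKM in ASO-PURPL cells, against 17.5 and 13.7 FPKM in ASO-NC cells, a mean ratio of -2.17 ± 0.18 (moderated SE; limma adjusted p 0.191). The groups were far apart. The gene was also lower under overexpression, with 2.87 and 2.48 FPKM in OE-PURPL cells, against 11.5 and 13.4 FPKM in PCDNA cells. Lowering and raising PURPL thus gave the same direction, and the difference between the 2 treatments was -0.30 (limma adjusted p 0.63). GLCCI1 also was lower under both, with ratios of -0.54 and -0.64 in the knockdown and -0.44 and -0.45 under overexpression. So was GRAMD4, with -1.03 and -0.27 under overexpression. Of the 15 ranked lower genes, 3 were lower and 5 higher in both overexpression pairs. Of the 15 ranked higher genes, 5 were higher, BBC3 (0.05 and 0.13) among them, and 7 were lower.

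IFI16, a nuclear sensor of DNA (chr1:158999968-159055155, plus strand), had close replicates. It had 21.05 and 20.97 FPKM in ASO-PURPL cells, against 36.4 and 32.3 FPKM in ASO-NC cells, and a mean ratio of -0.68 ± 0.094 (moderated SE; limma adjusted p 0.366). The groups did not overlap. UBE2B, a ubiquitin-conjugating enzyme of DNA damage tolerance, was as tight, with 40.1 and 37.9 FPKM in ASO-PURPL cells, against 58.5 and 54.6 FPKM in ASO-NC cells. The groups of UBE2B did not overlap, but the ranking chose both genes on these same values. The folate transporter SLC46A1 had 8.54 and 5.37 FPKM in ASO-PURPL cells, against 12.8 and 7.99 FPKM in ASO-NC cells, and its groups overlapped.

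The remaining lower genes spanned signalling, translation and RNA processing. HIVEP2, a zinc finger transcription factor, had ratios of -1.01 and -0.85, and PPIP5K1, a kinase of inositol pyrophosphates, had -1.44 and -0.80. The translation factor EIF5A2 had -0.62 and -0.83, the Mediator subunit MED31 -0.56 and -0.80, and USB1, which trims U6 RNA, -0.55 and -0.51. N4BP1, known as a suppressor of NF-kB signalling, had -0.55 and -0.63. GRAMD4, ZNF414 and the organic anion transporter SLCO4A1 complete the 14 described of 15, whose limma adjusted p ran from 0.191 to 0.587. All 30 ranked genes had an unadjusted p under 0.05, and the ranking chose them on size in both pairs.

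The higher genes tended to have long spans, and other genes lie inside some of them. Whether reads of those inner genes were counted with them was not tested. Of the 14 higher genes with coordinates, 8 (57.1%) had another annotated gene inside their span, as had 6 of 15 lower genes (40.0%) and 41.8% of the 8515 protein-coding genes with coordinates. Their median span was 85.5 kb, against 43.3 kb for the lower genes and 30.9 kb for all. Whether the counting used strand is not stated in the labels or processing notes.

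**Figure D4:**
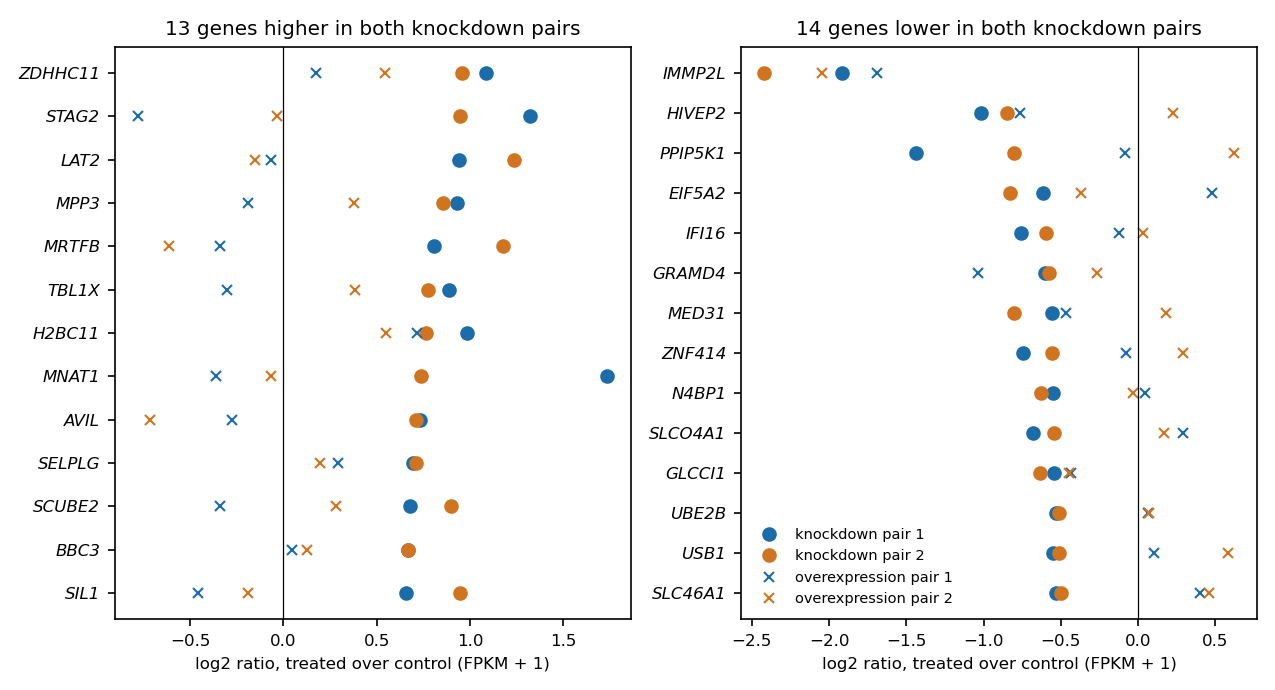
Log2 ratio of treated over control for 13 of the 15 genes with the largest ratios higher in both knockdown pairs (left) and 14 of the 15 lower (right); dots are the knockdown pairs and crosses the overexpression pairs, blue for pair 1 and orange for pair 2. For IMMP2L all 4 ratios lie at or below -1.69, while MRTFB has ratios of 0.81 and 1.18 in the knockdown and -0.34 and -0.61 under overexpression.

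Among the lists with at least 5 tested members, that of cholesterol biosynthesis and uptake had the median ratio, as a mean of the pairs, farthest from that of all genes. In pair 1 alone the NF-kB list lay farther out. Of 28 names, 26 were tested, 22 were lower in both pairs, 1 (HSD17B7) was higher, and ACAT2, LSS and STARD4 went in opposite directions. Lower in both pairs were 33.4% of all genes tested and 38.2% of the protein-coding genes above the level limit. The median ratio was -0.23 (-0.27 and -0.21 in the pairs), against -0.04 for all genes tested (-0.02 and -0.06). No member passed the test. The list was first noted in earlier results of these data, so its direction is not independent evidence.

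The members span the pathway from its control to its end. INSIG1, which holds the sterol sensor in the endoplasmic reticulum, had 35.7 and 45.9 FPKM in ASO-PURPL cells, against 45.3 and 58.8 FPKM in ASO-NC cells. SREBF2, the transcription factor of the pathway, had 28.9 and 43.0 FPKM in ASO-PURPL cells, against 39.9 and 48.4 FPKM in ASO-NC cells, and SCAP, its escort, had ratios of -0.20 and -0.28. Within each pair the treated library was lower for INSIG1 and SREBF2, while the groups overlapped across tables. DHCR7, which acts at the end of the pathway, had ratios of -0.43 and -0.30. TM7SF2 and NSDHL, enzymes of intermediate steps, had ratios of -0.28 and -0.42, and of -0.27 and -0.42. LBR, a sterol reductase of the nuclear envelope below the level limit, was named after its values were seen and had -0.46 and -0.61. Under overexpression the list had a median of 0.05. Of the related fatty acid genes, 9 of 13 were lower and 1 (ACACA) higher in both pairs, with a median of -0.10. Over all genes tested, 33.4% were lower and 19.3% higher in both.

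Targets of NF-kB, the transcription factor of inflammation, lay on the other side. Of 31 names, 26 were tested, and 13 were higher in both pairs, against 19.3% of all genes tested. NFKB1, TNFAIP2, NFKBIZ and IL32 were lower in both, and 9 went in opposite directions. The median ratio was 0.14 (0.28 and 0.08 in the pairs). The chemokine CXCL1 had 19.1 and 9.85 FPKM in ASO-PURPL cells, against 12.4 and 5.83 FPKM in ASO-NC cells, and a mean ratio of 0.63 with a limma adjusted p of 0.425. CXCL8, a neutrophil attractant, had 44.4 and 37.7 FPKM in ASO-PURPL cells, against 27.4 and 26.9 FPKM in ASO-NC cells, so its groups did not overlap. The cytokine LIF behaved alike in the values, with 12.87 and 11.03 FPKM in ASO-PURPL cells, against 9.21 and 7.24 FPKM in ASO-NC cells. CCL2, which attracts monocytes, had ratios of 0.47 and 0.37, and RELB, a subunit of the factor, had 0.49 and 0.22. IL6 went in opposite directions, with 0.46 and -0.38. Under overexpression the list also had a median above 0, at 0.21.

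The promoters of 4 members of this list and of SREBF2 are shown because the lists are named for factors with known binding letters. RefSeq (GRCh38.p14) gives 250 bases before to 50 after each gene start. Both strands were searched for the NF-kB core, GGG and TTCC set 3 bases apart, whose matches may overlap, and for the sterol core TCACNCCAC, and capitals mark the matches. Of the 26 tested NF-kB list members, 21 had a RefSeq promoter, and the NF-kB core was in 10 of these (47.6%), against 1766 of 27305 promoters in all (6.47%). Among those 10 genes, 4 were higher in both pairs, 3 lower, and 3 opposite. The lower ones, NFKB1, NFKBIZ and IL32, are not among the promoters printed. The sterol core was in 1 of 20 cholesterol promoters (5%), that of SREBF2, against 1.15% of all. The heat shock core, GAA, TTC and GAA each set 2 bases apart, was in 5 of 24 promoters of heat shock genes (20.8%), against 0.487% of all. The lists group genes already tied to these factors, so the shares of promoters with a core do not bear on the knockdown. The promoters printed lie at chr4:73869143-73869442 (CXCL1, plus strand), chr4:74099146-74099445 (CXCL2, minus), chr4:74038640-74038939 (CXCL3, minus), chr11:102317234-102317533 (BIRC3, plus) and chr22:41832855-41833154 (SREBF2, plus).
CXCL1: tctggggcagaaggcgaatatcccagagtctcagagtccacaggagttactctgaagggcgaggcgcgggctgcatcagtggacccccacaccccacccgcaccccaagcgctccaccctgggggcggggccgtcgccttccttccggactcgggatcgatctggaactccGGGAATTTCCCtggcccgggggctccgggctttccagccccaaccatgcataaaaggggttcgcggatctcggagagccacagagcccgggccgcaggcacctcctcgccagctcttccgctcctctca
CXCL2: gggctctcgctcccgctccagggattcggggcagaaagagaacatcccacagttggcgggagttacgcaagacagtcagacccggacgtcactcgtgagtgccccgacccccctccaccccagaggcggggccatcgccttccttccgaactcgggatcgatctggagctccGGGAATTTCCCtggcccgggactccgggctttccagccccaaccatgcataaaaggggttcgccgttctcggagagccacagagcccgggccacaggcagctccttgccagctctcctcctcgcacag
CXCL3: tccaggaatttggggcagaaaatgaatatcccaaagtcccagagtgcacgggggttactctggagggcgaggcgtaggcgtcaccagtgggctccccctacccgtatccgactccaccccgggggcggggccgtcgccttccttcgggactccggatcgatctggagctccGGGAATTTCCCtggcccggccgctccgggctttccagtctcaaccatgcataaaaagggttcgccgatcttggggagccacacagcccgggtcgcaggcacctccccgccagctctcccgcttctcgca
BIRC3: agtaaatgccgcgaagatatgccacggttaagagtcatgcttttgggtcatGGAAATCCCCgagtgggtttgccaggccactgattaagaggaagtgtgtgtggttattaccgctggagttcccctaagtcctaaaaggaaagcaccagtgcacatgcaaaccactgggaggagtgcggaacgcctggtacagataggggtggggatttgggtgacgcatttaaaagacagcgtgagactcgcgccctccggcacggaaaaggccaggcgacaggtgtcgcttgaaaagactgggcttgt
SREBF2: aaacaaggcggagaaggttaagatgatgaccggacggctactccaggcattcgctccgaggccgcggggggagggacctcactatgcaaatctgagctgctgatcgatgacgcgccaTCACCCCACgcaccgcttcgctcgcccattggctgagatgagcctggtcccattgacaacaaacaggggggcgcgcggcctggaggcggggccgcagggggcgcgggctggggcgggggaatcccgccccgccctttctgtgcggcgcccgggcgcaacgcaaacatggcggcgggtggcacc
The 3 chemokine promoters, of adjacent and related genes whose reads are hard to keep apart, share the same block of capitals. Their ratios differed even so. CXCL1 had 0.59 and 0.67, CXCL2 had 1.22 and 0.47, and CXCL3 had 0.63 and -0.11. BIRC3, an inhibitor of apoptosis shown for its match, had 0.51 and 0.29 at low levels of 2.50 and 2.70 FPKM in ASO-PURPL and 1.45 and 2.04 FPKM in ASO-NC cells.

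**Figure D5:**
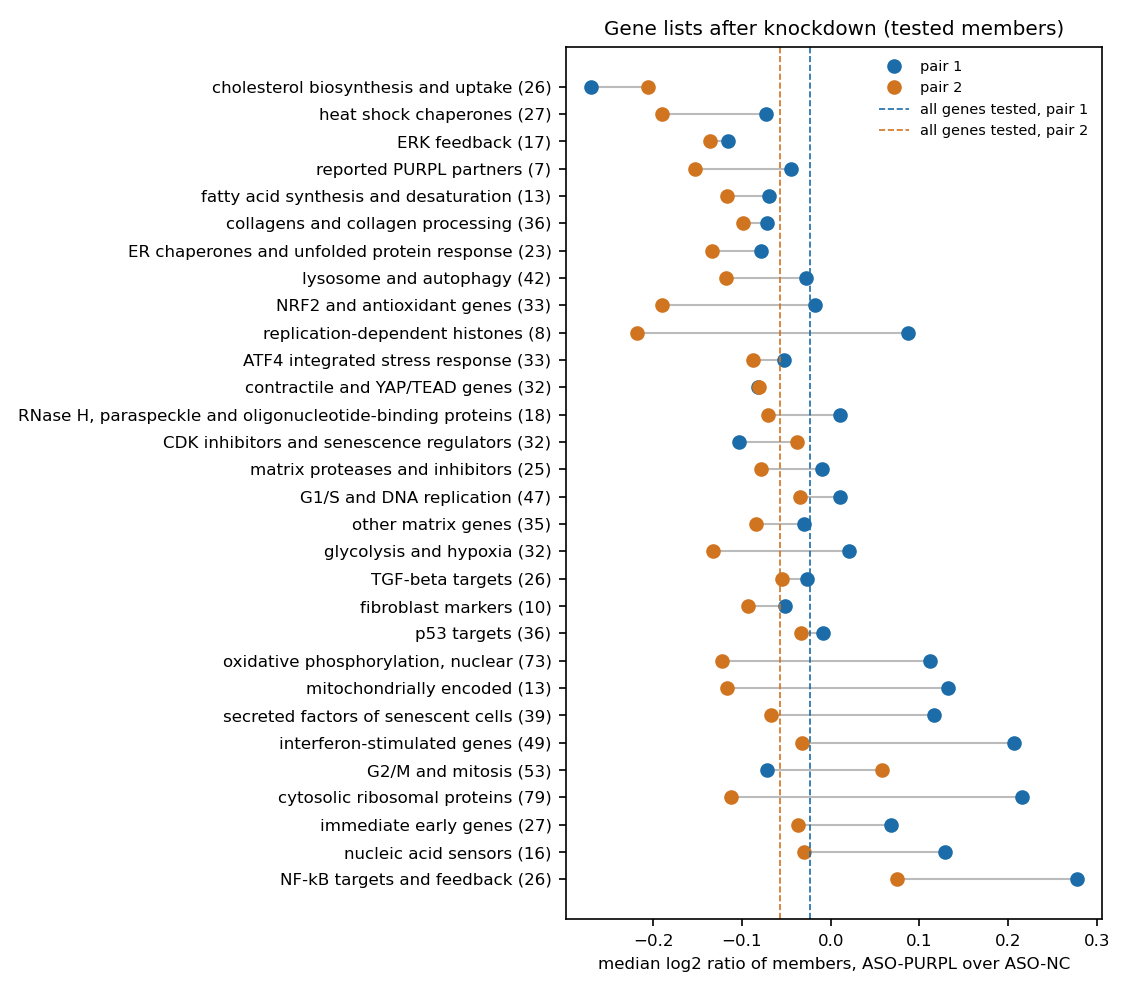
Median log2 ratio of ASO-PURPL over ASO-NC of the tested members of 30 gene lists (number tested in brackets), for pair 1 in blue and pair 2 in orange, with dashed lines at the medians of all genes tested (-0.02 and -0.06). The cholesterol list (-0.27 and -0.21) and the NF-kB list (0.28 and 0.08) stand at the ends, and ribosomal proteins lie at 0.22 and -0.11.

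Among 32 CDK inhibitors and senescence regulators, 17 (53.1%) were lower in both pairs and 3 (RBL1, LMNB1 and BMI1; 9.38%) higher, against 33.4% and 19.3% of all genes tested. Their median was -0.10 in pair 1 and -0.04 in pair 2. p21 was nearly level, with 715 and 621 FPKM in ASO-PURPL cells, against 678 and 670 FPKM in ASO-NC cells (CDKN1A; ratios 0.08 and -0.11). The p16 gene CDKN2A had 13.9 and 7.17 FPKM in ASO-PURPL cells, against 16.9 and 10.7 FPKM in ASO-NC cells. Its neighbour CDKN2B, which encodes p15, had 8.74 and 6.32 FPKM in ASO-PURPL cells, against 12.5 and 8.87 FPKM in ASO-NC cells. Each was lower inside its pair while the groups, set across tables, overlapped for CDKN2A and did not for CDKN2B. Both had ratios above 0 under overexpression, 0.76 and 0.41 for CDKN2A and 0.37 and 0.51 for CDKN2B, and for each the limma adjusted p of the difference was 0.35. The 2 genes overlap other annotated genes, and the use of strand is not given. LMNB1, a lamin that is lost in senescence, had 1.66 and 1.87 FPKM in ASO-PURPL cells, against 1.04 and 1.39 FPKM in ASO-NC cells. The CDK inhibitor CDKN1C was named after its values were seen, with 1.07 and 1.04 FPKM in ASO-PURPL cells, against 4.44 and 2.07 FPKM in ASO-NC cells.

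Genes that p53 targets or that act on it did not share a direction. MDM2, the ubiquitin ligase of p53, had ratios of 0.25 and 0.10. Of 36 p53 targets, 8 (22.2%) were higher and 13 (36.1%) lower in both pairs, with a median of -0.01. These shares were near the 19.3% and 33.4% of all genes tested. Among the higher were BBC3, GADD45A (0.27 and 0.28), a damage-response gene, and AEN (0.48 and 0.26), a nuclease of apoptosis. MYBBP1A, the reported partner of PURPL, had 22.4 and 24.6 FPKM in ASO-PURPL cells, against 24.4 and 27.0 FPKM in ASO-NC cells. Of 7 reported partners, none was higher and 4 were lower in both pairs.

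Secreted factors of senescent cells had 14 of 39 members (35.9%) higher and 7 (17.9%) lower in both pairs, against 19.3% and 33.4% of all genes tested, and 18 went in opposite directions. Their median was 0.12 in pair 1 and -0.07 in pair 2. IL1A, which starts the secretory programme, had 11.09 and 10.97 FPKM in ASO-PURPL cells, against 5.15 and 7.02 FPKM in ASO-NC cells, and the groups did not overlap. The protease MMP10 lay the other way, with ratios of -0.39 and -0.56, as 15.3 and 8.35 FPKM in ASO-PURPL cells, against 20.3 and 12.8 FPKM in ASO-NC cells. Heat shock chaperones had 15 of 27 lower and none higher in both pairs, and a median of -0.12. HSPB8, BAG3, HSPH1 and SERPINH1 (a chaperone of collagen) were among them, with ratios of -0.18 to -0.24 in pair 1 and -0.21 to -0.33 in pair 2.

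The genes of feedback on ERK signalling had 8 of 17 lower and 2 (DUSP1 and PHLDA1) higher in both pairs, with a median of -0.12. Over all genes tested, 33.4% were lower and 19.3% higher in both pairs. ETV5, a transcription factor that ERK signalling raises, had 24.9 and 12.5 FPKM in ASO-PURPL cells, against 33.8 and 18.8 FPKM in ASO-NC cells. DUSP6, the ERK phosphatase, had ratios of -0.19 and -0.54. Immediate early genes split, with 8 of 27 higher and 7 lower. EGR1 had 0.28 and 0.38, while ARC (named after its values were seen) had 1.65 and 2.02 FPKM in ASO-PURPL cells, against 6.32 and 5.93 FPKM in ASO-NC cells. ARC is a neuronal synaptic gene at a low level here. Its limma adjusted p was 0.247.

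Foreign oligonucleotides can be sensed by receptors for nucleic acids. ASO-PURPL and ASO-NC cells both carried an oligonucleotide, so a response to oligonucleotides as such cannot be read from these ratios. Of 16 nucleic acid receptors and effectors tested, 6 (37.5%) were higher in both pairs, against 19.3% of all genes tested, and IFI16, MAVS and SAMHD1 were lower. Their median was 0.13 in pair 1 and -0.03 in pair 2. The RNA sensors DDX58 and IFIH1 had ratios of 0.36 and 0.13, and of 0.34 and 0.20, and the kinase TBK1 had 0.29 and 0.20. Interferon-stimulated genes had 16 of 49 higher and 8 lower in both pairs, with medians of 0.21 and -0.03. In 19 of 49, pair 1 was up and pair 2 down. Of 18 RNase H, paraspeckle and oligonucleotide-binding proteins, 2 were higher and 5 lower in both pairs, against 19.3% and 33.4% of all genes tested.

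The lists of matrix, division and stress genes are given by their counts, beside 19.3% higher and 33.4% lower in both pairs among all genes tested. Among the protein-coding genes above the level limit, 14.6% were higher and 38.2% lower in both pairs, and several of these lists lie near those shares. Collagens and collagen enzymes had 19 of 36 lower and 4 higher in both pairs, with a median of -0.09, and COL1A1 had 716 and 844 FPKM in ASO-PURPL cells, against 925 and 989 FPKM in ASO-NC cells. Contractile and YAP/TEAD genes had 14 of 32 lower and 4 higher, among them CNN1 (-0.40 and -0.53), a calponin. Genes of G2/M and mitosis had 16 of 53 in each direction, and those of G1/S and DNA replication had 9 higher and 13 lower of 47. Genes of the ATF4 stress response had 7 of 33 higher and 16 lower, with TRIB3, a pseudokinase, at 0.54 and 0.41 and PHGDH, of serine synthesis, at -0.37 and -0.41. NRF2 and antioxidant genes had 15 of 33 lower and 1 higher, with GCLC, of glutathione synthesis, at -0.49 and -0.31. Lysosome and autophagy genes had 20 of 42 lower and 3 higher. Chaperones of the endoplasmic reticulum and the unfolded protein response had 13 of 23 lower and 1 higher. TGF-beta targets had 11 of 26 lower and 5 higher, genes of glycolysis and hypoxia 13 of 32 lower and 4 higher, and matrix proteases and their inhibitors 9 of 25 lower and 2 higher. Other matrix genes had 16 of 35 lower and 4 higher. Mitochondrially encoded genes had 2 of 13 in each direction, and replication-dependent histones had 2 of 8 lower and 1 higher. In these lists the mean of the pairs had a median between -0.09 and 0.03, but the pairs could differ in sign. Histones had 0.09 in pair 1 and -0.22 in pair 2, mitochondrially encoded genes 0.13 and -0.12, and genes of glycolysis and hypoxia 0.02 and -0.13. NRF2 and antioxidant genes had -0.02 and -0.19.

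The overexpression libraries have controls of their own, so they were read for the genes that the knockdown chose. Of the 3318 genes lower in both knockdown pairs, 1400 (42.2%) were higher in both overexpression pairs, against 38.2% of all 8678 genes. Of the 1263 higher in both knockdown pairs, 489 (38.7%) were lower in both overexpression pairs, against 31% of all. Among genes with ratios of 0.25 or more in both knockdown pairs, the shares were nearer those of all genes. Of 285 such lower genes, 114 (40.0%) were higher in both overexpression pairs. Of 161 such higher genes, 54 (33.5%) were lower in both. Among the 15 ranked lower genes 5 (33.3%) were higher, and among the 15 ranked higher genes 7 (46.7%) were lower. The differences in share were not tested. Ranked by the smallest of their 4 ratios, the genes with opposite directions in the 2 treatments (named after their values were seen) began with SEM1, a proteasome and DNA repair subunit, SLC46A1, MED28 and CDKN2B. SEM1 had 125 and 23.6 FPKM in ASO-PURPL cells, against 167 and 38.7 FPKM in ASO-NC cells, and 40.9 and 38.4 FPKM in OE-PURPL cells, against 23.7 and 25.01 FPKM in PCDNA cells. Its difference was -1.24 ± 0.151 (moderated SE, 2 pairs each; limma adjusted p 0.35). MED28, a Mediator subunit, had knockdown ratios of -0.48 and -0.52 and overexpression ratios of 0.38 and 0.44. MRTFB and ERBIN, a scaffold of ERBB receptors, lay the other way, with ERBIN at 0.34 and 0.37 in the knockdown and -0.60 and -0.80 under overexpression. No protein-coding gene passed the test of the difference.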

How the data were processed

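RNA sequencing values of 8 libraries from BJ cells were deposited by the authors in 3 tables, of which 2 hold the knockdown: replicate 1 of both ASO groups stands in its own table, and replicate 2 in a table of all 4 groups. STAR, Cufflinks and hg38 are named, without versions, per the submitters' processing notes, while the sources used here do not give the annotation. The unit of the deposited values was inferred as FPKM, from Cufflinks and from values that are not whole and sum to 463588 to 586913 in the ASO libraries. The table of replicate 1 also holds the authors' log2 fold change. Depth is unknown. The design text of the series names cells that no label holds and was not used.

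Of 60635 rows per table, 1264 repeated a gene name, and each such name kept its highest row. After 1 gene was left out for a cell holding no number, 59370 genes remained, and 37747 names were found in GENCODE 29. Ratios were log2(FPKM + 1), treated minus control inside a table. Genes averaging 1 FPKM or more in either comparison entered limma 3.58.1 (R 4.3.3, with trend), in one fit with the overexpression pairs, with Benjamini-Hochberg adjustment over all 14977 genes and a threshold of 0.05. The fit was also run on simulated data, and the outcome of that run is not reported here. The replicate block is the deposited table. The deviations of same-numbered ASO-PURPL and ASO-NC libraries from their group means correlated across genes with r = 0.49. Named genes were the 15 higher and 15 lower with the largest smaller-of-the-pairs ratio, the leading members of each list with a mean of at least 5 FPKM, and 13 core genes. The members and the 35 lists were chosen with earlier results of these data known. No set test was made, and 13 alternatives were tried. Some genes that the rule names are not reported here.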

Additional observations from a re-analysis of the deposited data

Results flagged for a closer look

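The change of PURPL itself differed between the treatments in a limma contrast of the knockdown ratio with the overexpression ratio. The treatments were made to lower and to raise PURPL, so the sign of this difference was set by the design. Most of it came from overexpression, with a mean ratio of 4.87 (limma adjusted p 0.00511). The mean knockdown ratio was -1.13 (limma adjusted p 0.374). The log2 ratio of ASO-PURPL over ASO-NC minus that of OE-PURPL over PCDNA was -6.00, with 2 pairs on each side (limma adjusted p 0.0106). Both knockdown ratios were below 0 (-1.23 and -1.03), and both overexpression ratios were above 0 (4.59 and 5.15).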

How the results depend on the processing

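No alternative but 1 called a gene after knockdown. With a pseudocount of 0.1 there was 1 call, RP11-56G10.2. The count of genes with an unadjusted p under 0.05 was 1225 and ran from 277 with no replicate block together with quantile normalization to 2547 with no filter on low values. PURPL stayed lower in all 13 alternatives, between -1.26 and -0.79, with a limma adjusted p between 0.239 and 1. With quantile normalization and no replicate block its ratio was -1.10 (adjusted p 1). The block follows the deposited tables. Alternatives that change only the filter, the trend or the use of the overexpression pairs leave the ratio of PURPL as it is, so they could not turn it. Both of its knockdown ratios were below 0, so leaving out 1 ASO pair could not turn it either.

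The difference between knockdown and overexpression called 3 genes, and 0 with no filter on low values. Leaving out 1 pair at a time gave 0 to 0 calls, which includes PURPL, whose difference then ran from -6.29 to -5.72 with a limma adjusted p of 0.0706 to 0.213. The share of higher among equal-direction protein-coding genes was 27.6%, 42.0% after centring and 42.7% with no replicate block and quantile normalization together.

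The directions of genes near 0 turned. CDKN1A was -0.017, and 0.023 after centring and 0.00384 with trends in length and GC content removed. GAPDH was -0.0072, and 0.032 and 0.015 under the same alternatives. ACTB was 0.018, and -0.063 with no replicate block and quantile normalization together. Leaving out 1 ASO pair at a time gave -0.109 to 0.076 for CDKN1A, -0.145 to 0.130 for GAPDH, -0.133 to 0.169 for ACTB, -0.382 to 0.461 for IL6 and -0.034 to 0.112 for ELAVL1, and the value with pair 2 alone is the lower one in each. Of 544 values of named genes, 534 kept their direction and side of the threshold. The ranked genes were chosen for equal directions in both pairs, so leaving out a pair could not turn them. As the main fit called no gene after knockdown, the 534 say little about stability. Of 389 list medians, 350 moved by less than the spread between the pairs. Alternatives that change only the trend or the use of the overexpression pairs cannot move a list median. Part of the 350 was thus fixed in advance and says little about stability. The median of nucleic acid sensors turned to -0.03 without replicate 1 of the ASO groups. The histone list had too few members with a length for the alternative that removes trends. Depth is unknown, and with 2 pairs only differences far beyond the spread between pairs can pass.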
